A study of Mus musculus with 36 samples.

Results

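The gene set of IL-2 receptor and STAT5 signalling comprised 10 of the 24781 genes in the deposited count table, and its members were taken by gene name. They were the ligand *Il2*, the receptor chains *Il2ra*, *Il2rb*, *Il2rg*, *Il15ra* and *Il21r*, the kinase *Jak3*, the transcription factors *Stat5a* and *Stat5b*, and the inhibitor *Cish*. All 10 names were found, each on a row of its own, and every member is described here in tumour CD8+ T cells and in tumour-associated macrophages (TAMs).

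Activated T cells secrete IL-2, which binds a receptor made of the alpha chain (*Il2ra*), the beta chain (*Il2rb*) and the common gamma chain (*Il2rg*). The gamma chain is also used by the receptors for IL-4, IL-7, IL-9, IL-15 and IL-21, and it carries the kinase JAK3, which together with JAK1 activates STAT5A and STAT5B. Activated STAT5 moves to the nucleus and induces *Il2ra* and the feedback inhibitor *Cish*, and in CD8+ T cells this pathway supports growth, survival and cytotoxic function.

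The libraries came from MC38 tumours, a mouse colon adenocarcinoma line, on day 7 after inoculation, and the study asked how B cells and the metabolite GABA shape the T cells and macrophages of the tumour. CD8+ T cells (CD45+TCRβ+CD8+) and TAMs (CD45+CD11b+F4/80 hi) were each sorted as 100 cells per library, with 6 libraries per group. The 3 mouse groups were WT mice, *muMt*-/- mice, and *muMt*-/- mice implanted with a slow-release GABA pellet. *muMt*-/- mice carry a disrupted *Ighm* gene in every cell, lack mature B cells and were on the C57BL/6J background. For WT mice the paper names C57BL/6J or C57BL/6N and does not say which was used for these libraries. A difference of substrain, if present, could not be told apart from the genotype. The labels give the treatment of the first 2 groups as none, whereas the paper describes placebo pellets, and age and sex are not given in the labels. *Ighm* was not analysed here, so the genotype was not checked on it.

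Values are numbers of distinct molecules, since each molecule was barcoded before amplification, and normalized molecules are these counts divided by size factors computed over the 18 libraries of a cell type. The total per CD8+ T cell library was 22896 to 76898 (median 42065.5) for WT, 51064 to 77839 (median 67121.5) for *muMt*-/- and 65356 to 98015 (median 80283) for *muMt*-/- mice with the pellet. The totals of TAM libraries were 206394 to 304100, 100254 to 253608 and 151856 to 262606 in the same order. Depth thus differed between mouse groups and between cell types, and its part in the results below was not tested beyond the fits that take it as a covariate.

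Marker genes of the sorted cells were compared first. All 12 CD8 T cell markers were detected in the CD8+ T cell libraries, where they summed to 204 to 662 normalized molecules per library on the scale of all 36 libraries (*Thy1* was the most abundant), against 0 to 4.71 in TAM libraries. The 15 macrophage markers summed to 1035 to 1789 in TAM libraries, with *Apoe* the most abundant. Macrophage markers were also present in CD8+ T cell libraries, and 0 of the 13 tested were called between mouse groups. At an unadjusted p under 0.05 with edgeR, 9 were higher in *muMt*-/- than in WT mice. The same count was 9 for GABA-treated *muMt*-/- against WT mice, and 0 for the pellet in *muMt*-/- mice. In replicates 1 to 6 the macrophage markers summed to 12.8, 8.26, 22.2, 0, 102 and 26.4 in WT mice. In *muMt*-/- mice the sums were 495, 49.4, 87.8, 53.8, 156 and 72.3, and in GABA-treated *muMt*-/- mice 293, 130, 260, 22.1, 11.97 and 106. *Adgre1* and *Mrc1* were at 0 in all 6 WT libraries, *Cd14* was the most abundant macrophage marker in the first 2 groups and *Itgam* in the last. In these sorted samples, fewer cells of a type and less RNA per cell cannot be told apart.

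Markers of other T and NK cells were low in the CD8+ T cell libraries. The 3 CD4 and regulatory T cell markers summed to 0 to 9.58 (*Cd40lg* was the most abundant over all these libraries) and the 5 NK cell markers to 0 to 13.6 (*Klre1*, with *Ncr1* and *Klra8* at 0). The 8 dendritic cell markers summed to 11.4 to 69.1, most of it from *Ccr7*, which T cells also express, with *Clec9a* and *Cd209a* at 0. The 5 neutrophil markers reached 21.4 (*S100a8*; *Ly6g* and *Retnlg* at 0) and the 10 tumour and stroma markers 128 (*Col3a1*; *Krt8*, *Krt18* and *Krt19* at 0). In TAM libraries the tumour and stroma markers summed to 8.44 to 573 (median 59.8), with *Col3a1* the most abundant and *Epcam*, *Krt18* and *Krt19* at 0. The highest were replicate 6 of WT (573), replicate 2 of GABA-treated *muMt*-/- (294) and replicate 3 of *muMt*-/- mice (231), and the part of this RNA in the members' values was not tested. The dendritic cell markers reached 19.3 in TAMs (*Fscn1*), the neutrophil markers 14.6 (*S100a8*), the NK cell markers 3.07 (*Klra4*) and the CD4 and regulatory T cell markers 0.903 (*Foxp3*). The gene in brackets is the most abundant of its list over all libraries of the cell type, which need not hold in the highest library.

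The first question was whether the loss of B cells, and the GABA pellet given without B cells, changed the pathway in CD8+ T cells. No member passed an adjusted p of 0.05 in any of the 3 comparisons with edgeR. Between *muMt*-/- and WT mice 0 of 10 members were called, against 0% of 6663 genes tested, and at an unadjusted p under 0.05 there were 0 members and 411 genes. Between *muMt*-/- mice with and without the GABA pellet 0 of 10 members were called (0% of all genes; 0 members and 247 genes unadjusted), and for the GABA-treated *muMt*-/- group against WT mice again 0 of 10 (0% of all genes; 0 members and 459 genes unadjusted). DESeq2 with adjusted p also called 0 members in each of the 3 comparisons, and with unadjusted p it called 1, *Il2rb* between *muMt*-/- and WT mice (log2 fold change −0.62, unadjusted p = 0.0346), beside 222 genes (3.33%). The comparisons share groups, so their values are given side by side and were not correlated.

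The members' median log2 fold change was 0.26 between *muMt*-/- and WT mice, beside 0.16 over all genes, with 6 of 10 above 0. It was −0.12 beside 0.033 for the GABA pellet in *muMt*-/- mice (4 of 10 above 0), and 0.038 beside 0.21 for GABA-treated *muMt*-/- against WT mice (5 of 10 above 0). With the size factors of DESeq2 in place of TMM, the median over all genes moved from 0.16 to 0.0595, from 0.033 to −0.016 and from 0.21 to 0.0595 in these comparisons, and these shifts apply to every member's value in them.

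*Il2* encodes the ligand and was detected in 15 of 18 CD8+ T cell libraries, with 123 molecules in all. Its lowest, median and highest normalized numbers were 0, 3.02 and 9.17 in WT mice, 0, 5.63 and 12.5 in *muMt*-/- mice, and 0, 2.96 and 23.5 in GABA-treated *muMt*-/- mice. The groups overlapped over most of their range, each had 1 library without an *Il2* molecule, and replicates 4 and 3 of the GABA-treated group (23.5 and 11.8) stood above its other 4 libraries, which held at most 3.18. The log2 fold change was 0.88 ± 0.734 (SE) for *muMt*-/- against WT mice, 0.46 ± 0.568 for the GABA pellet, and 1.34 ± 0.689 for GABA-treated *muMt*-/- against WT mice (95% interval −0.0094 to 2.69, adjusted p = 0.733). Without replicate 4 of the GABA-treated group, which held 38 of its 68 molecules, the last value was 0.48 and the value for the pellet was −0.41. With the macrophage markers as a covariate the value against WT mice was 1.93 (adjusted p = 0.269), and with depth as a covariate it was 0.81.

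*Il2ra*, the alpha chain that gives the receptor high affinity, was found in all 18 CD8+ T cell libraries. Its lowest, median and highest numbers were 10.3, 12.6 and 26.3 in WT mice, 14.2, 18.9 and 24.2 in *muMt*-/- mice, and 11.7, 17.3 and 20.5 in GABA-treated *muMt*-/- mice. All 6 *muMt*-/- libraries lay above 5 of the 6 WT libraries, and the remaining WT library, replicate 6, was the highest of all 18. The mean was 19.3 ± 3.38 (SD, n = 6) in *muMt*-/- mice and 14.4 ± 5.95 in WT mice, and the log2 fold change was 0.45 (95% interval −0.093 to 0.99, adjusted p = 0.877). Without replicate 6 of the WT group it was 0.84 with an unadjusted p of 0.00483 and an adjusted p of 0.413, and with depth as a covariate it was 0.096. For the GABA pellet in *muMt*-/- mice the log2 fold change was −0.19 ± 0.257, and against WT mice it was 0.26 ± 0.276, which became 0.65 without replicate 6 of the WT group and −0.27 with depth as a covariate.

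*Il2rb*, the beta chain shared by the receptors for IL-2 and IL-15, ranged the other way. The lowest, median and highest numbers were 17.7, 24.0 and 36.1 in WT mice, 5.06, 18.04 and 24.7 in *muMt*-/- mice, and 13.01, 23.1 and 24.7 in GABA-treated *muMt*-/- mice. In *muMt*-/- mice 3 of 6 libraries lay below all WT libraries and the other 3 within the WT range, and replicate 1, with 5 molecules, was the lowest of all 18 libraries. The log2 fold change against WT mice was −0.50 (95% interval −1.07 to 0.076, adjusted p = 0.858). Replicate 1 of the *muMt*-/- group also had the highest sum of macrophage markers (495) and the lowest sum of CD8 T cell markers (204) of the 18 libraries. Without it the log2 fold change was −0.30, and with the macrophage markers as a covariate it was −0.016, while their part in the result was not tested further. The GABA pellet in *muMt*-/- mice gave 0.28 ± 0.283 (0.084 without that library), and GABA-treated *muMt*-/- against WT mice gave −0.22 ± 0.284 (0.28 with the macrophage markers as a covariate).

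*Il2rg*, the common gamma chain, had lowest, median and highest numbers of 19.2, 27.6 and 47.5 in WT mice, 16.8, 19.9 and 46.6 in *muMt*-/- mice, and 11.9, 20.3 and 28.9 in GABA-treated *muMt*-/- mice. Replicate 6 of the *muMt*-/- group stood alone at 46.6, above the next library of its group at 22.3, and 3 of 6 GABA-treated libraries lay below all WT libraries. The log2 fold changes were −0.24 ± 0.285 for *muMt*-/- against WT mice, −0.13 ± 0.279 for the pellet and −0.37 ± 0.284 for GABA-treated *muMt*-/- against WT mice, with adjusted p of 0.96, 0.999 and 0.844. Without replicate 6 of the *muMt*-/- group the value for the pellet was 0.20, and with the macrophage markers as a covariate the first value was 0.13. With 1 library left out, the first value ran from −0.565 to −0.0266 and the last from −0.541 to −0.156.

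The other receptor chains were rarer in CD8+ T cells. *Il15ra*, which presents IL-15 to neighbouring cells, had 27 molecules in the 18 libraries, and 6 libraries had none; the group medians were 0.38 in WT, 1.83 in *muMt*-/- and 0.71 in GABA-treated *muMt*-/- mice. Its log2 fold changes of 1.20 ± 0.83, −0.77 ± 0.689 and 0.43 ± 0.895 in the 3 comparisons had wide errors. With 1 library left out these values ran from 0.843 to 1.77, from −1.64 to −0.417 and from −0.434 to 0.998. *Il21r*, the specific chain of the IL-21 receptor, was found in all 18 libraries at 2.29 to 10.6, with group medians of 5.16, 3.54 and 4.34. Within *muMt*-/- mice replicates 5 and 1 (10.6 and 8.09) exceeded every WT library, whereas the other 4 lay below all 6 WT libraries. Its log2 fold changes were −0.066, −0.11 and −0.18, and the first was −0.45 without replicate 5 of the *muMt*-/- group.

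*Jak3*, the kinase bound to the gamma chain, had 59 molecules in the CD8+ T cell libraries and ranged from 0 to 5.16 in WT, 1.01 to 6.69 in *muMt*-/- and 0.91 to 3.94 in GABA-treated *muMt*-/- mice. *Stat5a* ranged from 0 to 9.62, from 1.12 to 5.73 and from 3.66 to 4.68 in the same groups. The GABA-treated libraries were the closest together for *Stat5a*, with a coefficient of variation of 10.1%, below the 41.4% that counting alone gives at a mean of 5.83 molecules. *Stat5b* ranged from 2.21 to 7.21, from 1.01 to 6.66 and from 0.64 to 5.52. Here 3 of 6 GABA-treated libraries lay below all WT libraries, and the log2 fold change of GABA-treated *muMt*-/- against WT mice was −0.73 ± 0.473 (adjusted p = 0.792). The remaining log2 fold changes of these 3 genes lay between −0.52 and 0.45, with adjusted p of 0.898 and above.

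*Cish*, a STAT5 target whose protein dampens cytokine receptor signalling, had lowest, median and highest numbers of 0, 9.50 and 15.5 in WT mice, 7.85, 9.75 and 10.8 in *muMt*-/- mice, and 5.58, 8.70 and 14.8 in GABA-treated *muMt*-/- mice. The *muMt*-/- libraries were close together, and they lay inside the range of the WT libraries, where replicate 3 had no molecule and replicate 4 the highest number. The means of 9.002 ± 5.28, 9.53 ± 1.26 and 9.88 ± 3.52 (SD, n = 6) differed by less than the spread between libraries. The log2 fold changes were 0.15, 0.083 and 0.23 (SE 0.358, 0.326 and 0.351; adjusted p 0.994, 0.999 and 0.94). For the GABA pellet the 95% interval ran from −0.56 to 0.72.

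The same question was asked of TAMs, in which macrophage *Il2rg* also serves the receptor for IL-4. *Il2* had no molecule in any of the 18 TAM libraries and *Il2rb* had 6 molecules, with 14 libraries at 0, so both fell under the filter of a mean of 1 normalized molecule and 8 of 10 members were tested. Between *muMt*-/- and WT mice 0 of 8 members were called with edgeR, against 2.05% of 9469 genes. This share was 0.116% with depth as a covariate. With 1 library left out it ran from 0.729%, without replicate 4 of *muMt*-/- mice, to 2.43%, without their replicate 5. For the GABA pellet in *muMt*-/- mice 0 of 8 were called against 0.0211% of genes, and for GABA-treated *muMt*-/- against WT mice 0 of 8 against 0.0739%. At an unadjusted p under 0.05 there were 0 members in each comparison, and 1408, 801 and 665 genes. DESeq2 called 0 members with adjusted or unadjusted p, and 253, 60 and 14 genes with adjusted p.

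Over the 8 members tested, the median log2 fold change was 0.12 between *muMt*-/- and WT mice (−0.047 over all genes), −0.15 for the pellet (0.059 over all genes) and −0.27 for GABA-treated *muMt*-/- against WT mice (0.018 over all genes). Nuclear RNA differed between these TAM groups: the 4 nuclear transcripts summed to 341 to 418 in WT, 532 to 1287 in *muMt*-/- and 384 to 622 in GABA-treated *muMt*-/- mice, with *Malat1* the most abundant. Its part in the members' values was not tested.

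*Il2rg* was found in every TAM library, with lowest, median and highest numbers of 31.3, 38.2 and 49.6 in WT, 30.7, 36.8 and 43.3 in *muMt*-/- and 25.4, 35.8 and 52.2 in GABA-treated *muMt*-/- mice. In *muMt*-/- mice 5 of 6 libraries lay within the WT range, and the GABA-treated libraries spread beyond it on both sides. The log2 fold changes were −0.089, 0.065 and −0.024, with a 95% interval of −0.46 to 0.29 for the first (adjusted p = 0.894).

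*Il2ra* had lowest, median and highest numbers of 1.45, 4.97 and 13.8 in WT TAMs, 0, 3.57 and 7.38 in *muMt*-/- TAMs, and 0, 2.86 and 13.1 in GABA-treated *muMt*-/- TAMs. Replicate 4 of the WT group and replicate 5 of the GABA-treated group stood at 13.8 and 13.1, and the groups overlapped. The log2 fold changes were −0.75 ± 0.573, 0.27 ± 0.632 and −0.47 ± 0.52, with adjusted p of 0.605, 0.946 and 0.916, and without replicate 5 of the GABA-treated group the value for the pellet was −0.43 and that of GABA-treated against WT mice −1.18. Without replicate 4 of the WT group the 2 values against WT mice were −0.29 and −0.032.

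*Il21r* in TAMs ranged from 5.12 to 16.3, from 3.73 to 16.6 and from 5.77 to 13.1 in the 3 groups, with medians of 10.8, 8.43 and 7.80. Its log2 fold changes of −0.19, −0.15 and −0.34 were within the spread between libraries (SE 0.305, 0.328 and 0.297). *Il15ra* ranged from 1.58 to 7.99, from 1.40 to 7.77 and from 2.66 to 6.41, and 4 of 6 WT libraries held 2.18 or less, against a median of 5.18 in *muMt*-/- mice. The log2 fold change of *Il15ra* between these 2 groups was 0.41 ± 0.443 (adjusted p = 0.743). With 1 library left out it ran from 0.261 to 0.794. The highest value (adjusted p = 0.461) was that without replicate 6 of WT, the library with the highest sum of tumour and stroma markers.

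Each of the signalling genes was rare in TAMs, with 123 molecules of *Stat5b*, 60 of *Cish*, and 56 each of *Stat5a* and *Jak3* in the 18 libraries. *Stat5a* had medians of 3.10, 3.70 and 2.02 in the 3 groups, and the GABA-treated libraries lay close together at 1.66 to 2.88. The log2 fold change for the pellet was −0.68 ± 0.496 (adjusted p = 0.758). *Stat5b* had medians of 7.40, 7.68 and 5.55 and was at 0 in replicate 6 of the *muMt*-/- group alone. *Jak3* had medians of 3.03, 3.84 and 1.93, with a log2 fold change of −0.56 ± 0.52 for the pellet (adjusted p = 0.817). *Cish* had medians of 2.01, 3.80 and 2.39, and its log2 fold change between *muMt*-/- and WT mice was 0.39 ± 0.507 (adjusted p = 0.801). With 1 library left out, the value of *Jak3* for the pellet ran from −0.92 to −0.389. That of *Cish* between *muMt*-/- and WT mice ran from 0.255 to 0.631. For each of these 4 genes the groups overlapped.

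Next, the levels were compared between CD8+ T cells and TAMs over the 3 mouse groups, in a fit to all 36 libraries and on its scale. CD8+ T cells were higher for 9 of 10 members and lower for 0 of 10, against 12.2% of 8477 genes called higher and 26.9% called lower (39.1% in either direction). The members' median log2 fold change was 1.66, with *Il2* at its fitted value or at the bound given below, and the median over all genes was −0.19. The count and the median take in *Il2* and *Il2rb*, whose TAM means were 0 and 0.196. These genes passed the filter only through the CD8+ T cell libraries, where they are high, so their calls are given as a description. DESeq2 also called 9 of 10 members, beside 37.7% of genes. Within WT, *muMt*-/- and GABA-treated mice alone edgeR called 6, 7 and 7 of 10 members, beside 22.7%, 21.4% and 22% of 8477 genes. Under the edgeR function filterByExpr, which leaves out the most sparse genes, 5 of the 5 members tested were called, beside 63.5% of 2614 genes. For most members the number of CD8+ T cell libraries above all TAM libraries is given below. The share of all genes separated in this way was not counted, so these numbers are a description.

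*Il2* was found in 15 of 18 CD8+ T cell libraries, up to 40.1 normalized molecules, and in 0 of 18 TAM libraries. There were 123 molecules among 1154683 in CD8+ T cells and 0 among 3663618 in TAMs. The mean was 9.36 ± 10.1 (SD, 18 libraries) in CD8+ T cells, and the count of 0 allows a mean of up to 0.0913 in TAMs. With a floor of 3 counts over the 18 TAM libraries, *Il2* was at least 102-fold higher in CD8+ T cells (adjusted p = 7.64e-10 in the fit, a description as said above). The 3 CD8+ T cell libraries without a molecule could not be told apart from TAM libraries by this gene.

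*Il2rb* did not overlap between the cell types. Its lowest, median and highest numbers were 8.22, 37.7 and 62.3 in CD8+ T cells and 0, 0 and 1.69 in TAMs. All 18 CD8+ T cell libraries lay above all TAM libraries, and the log2 fold change was 7.03 ± 0.279 (adjusted p = 6.46e-29). As said above, *Il2rb* passed the filter only through the CD8+ T cell libraries, so these values are a description. The TAM mean was 0.541% of the CD8+ T cell mean, beside 0.435% for the summed CD8 T cell markers, and the part of T cell RNA in the TAM value was not tested.

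*Il2ra* had lowest, median and highest numbers of 17.8, 28.7 and 43.9 in CD8+ T cells and 0, 2.53 and 8.07 in TAMs. Again all 18 CD8+ T cell libraries lay above all TAM libraries, with a log2 fold change of 3.36 ± 0.237 (adjusted p = 3.88e-18). The TAM mean was 9.74% of that in CD8+ T cells, and 16 of 18 TAM libraries held *Il2ra* molecules. *Cish* had 0, 15.0 and 26.7 in CD8+ T cells and 0, 1.66 and 3.92 in TAMs. The 17 CD8+ T cell libraries with a *Cish* molecule all lay above every TAM library, and the log2 fold change was 3.02 ± 0.229 (adjusted p = 6.49e-17).

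The gamma chain was present in both cell types. *Il2rg* had lowest, median and highest numbers of 19.7, 37.3 and 81.8 in CD8+ T cells and 14.9, 21.1 and 31.0 in TAMs, so that 14 of 18 CD8+ T cell libraries lay above all TAM libraries and the other 4 overlapped with them. The log2 fold change was 0.88 ± 0.142 (adjusted p = 6.43e-07). *Stat5a* (6.72 ± 3.49 against 1.81 ± 0.916, SD, 18 libraries each) and *Jak3* (4.70 ± 3.31 against 1.69 ± 0.861) were also higher in CD8+ T cells, by 1.85 ± 0.257 and 1.46 ± 0.308 on the log2 scale (adjusted p = 1.91e-08 and 8.4e-05). For *Stat5a* 14 and for *Jak3* 11 of 18 CD8+ T cell libraries lay above all TAM libraries. With only WT mice compared, *Jak3* no longer passed (adjusted p = 0.0716).

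*Stat5b* was 0.73 ± 0.234 higher in CD8+ T cells on the log2 scale (6.46 ± 3.46 against 3.67 ± 1.33; adjusted p = 0.00903), with 11 of 18 libraries above all TAM libraries. It did not pass within WT, *muMt*-/- or GABA-treated mice alone (adjusted p = 0.0618, 0.252 and 0.429). *Il21r* was 0.53 ± 0.209 higher (8.48 ± 3.52 against 5.64 ± 2.23; adjusted p = 0.0375), with 5 of 18 libraries above all TAM libraries, and this call depended on single libraries. It was lost on leaving out replicate 5 of WT, replicate 1 or 5 of *muMt*-/- or replicate 5 of GABA-treated CD8+ T cells (adjusted p = 0.0605, 0.0665, 0.126 and 0.0602). The same happened without replicate 1 or 6 of WT, replicate 2 of *muMt*-/- or replicate 2 of GABA-treated TAMs (adjusted p = 0.0539, 0.0526, 0.0597 and 0.0578). It was lost too without the filter on low counts (0.0903) and within each mouse group alone (0.48, 0.304 and 0.228).

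*Il15ra* was the only member not called between the cell types: 2.12 ± 2.31 normalized molecules in CD8+ T cells and 2.49 ± 1.42 in TAMs, with a log2 fold change of −0.29 ± 0.378 (95% interval −1.04 to 0.45, adjusted p = 0.582). It was at 0 in 6 CD8+ T cell libraries and in 0 TAM libraries, and its log2 fold change was 0.21 within *muMt*-/- mice alone.

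These levels are relative to all RNA of a library, and TAM libraries held more molecules per 100 cells, with a median of 207796 against 67183.5. Counted without normalization, the order was the other way for *Il2rg* (491 molecules in 18 CD8+ T cell libraries and 743 in 18 TAM libraries), *Il21r* (99 and 192) and *Stat5b* (74 and 123). It was the same for *Il2ra* (350 and 92), *Il2rb* (414 and 6), *Cish* (191 and 60) and *Stat5a* (80 and 56), and *Jak3* had 59 and 56. Macrophage markers in CD8+ T cell libraries averaged 7.27% of their sum in TAMs, and their part in the members' values was not tested in this comparison.

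**Figure D1:**
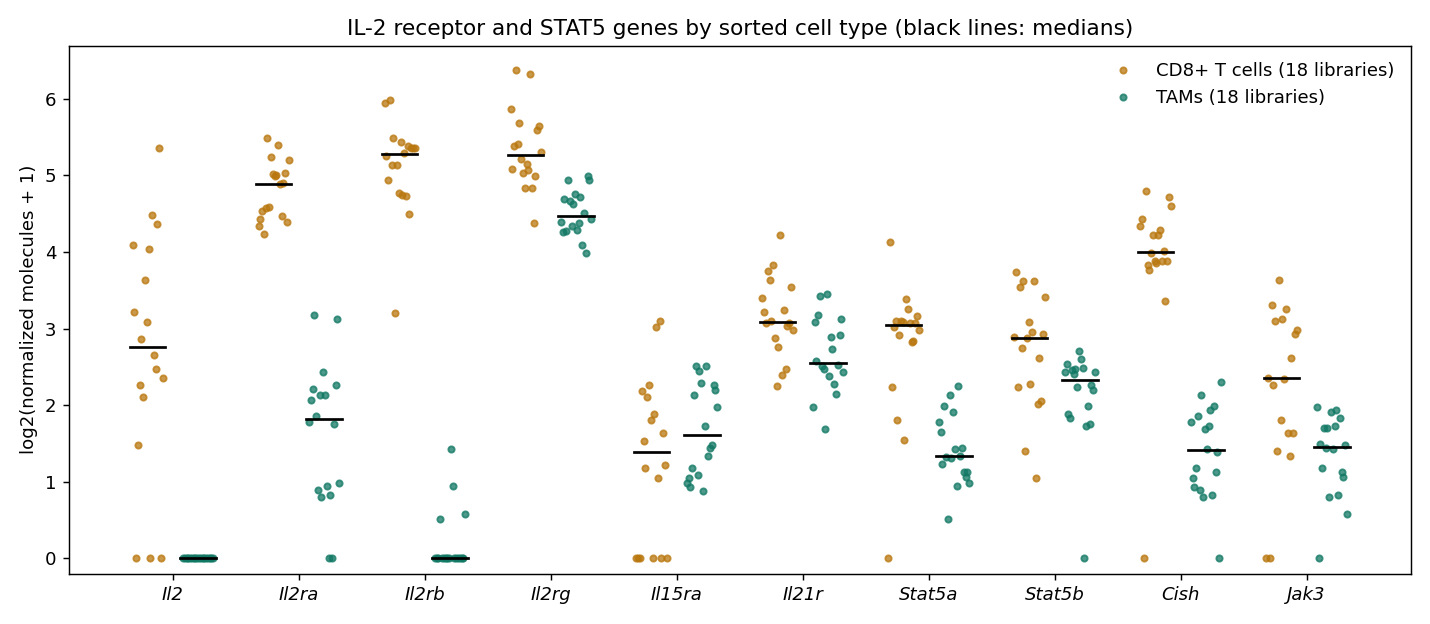
Log2 of normalized molecules plus 1 (vertical axis) of the 10 genes (horizontal axis) in 18 CD8+ T cell and 18 TAM libraries. Points are libraries and black lines are medians. All CD8+ T cell libraries lie above all TAM libraries for *Il2ra* and *Il2rb*, and the cell types overlap for *Il15ra* and *Il21r*. The share of all genes separated in this way was not counted.

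Whether TAMs and CD8+ T cells responded differently was tested by the difference of their log2 fold changes. For *muMt*-/- against WT mice 0 of 10 members were called with edgeR (0.0118% of 8477 genes), with 1 member and 853 genes at an unadjusted p under 0.05. This member was *Il2rb*, with a difference of 2.16 ± 1.05 (unadjusted p = 0.0439, adjusted p = 0.472), which rested on 1 molecule in 6 WT and 4 molecules in 6 *muMt*-/- TAM libraries. *Il2ra* had a difference of −1.19 ± 0.626 (adjusted p = 0.526). Here too the size factors of DESeq2 moved the median over all genes, from −0.30 to −0.11. For the GABA pellet 0 of 10 members were called (0% of genes), with 0 members and 384 genes unadjusted, and DESeq2 called 0 members in both tests with adjusted p. The largest member difference for the pellet was that of *Il2rb*, −1.83 ± 1.06 (adjusted p = 0.994). It rested on 4 molecules in 6 *muMt*-/- and 1 molecule in 6 GABA-treated TAM libraries. *Il2* gave no usable difference, since every TAM library was at 0.

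Other genes of the pathway were taken from a list of 59 genes in 6 groups. In CD8+ T cells 50 were tested and 0 were called in the 3 comparisons with edgeR; at an unadjusted p under 0.05 there were 5 higher and 2 lower for *muMt*-/- against WT mice, 3 and 0 for the pellet, and 7 and 2 for GABA-treated *muMt*-/- against WT mice. Over all genes the same shares were 5.37% higher and 0.795% lower, then 2.01% and 1.7%, then 5.99% and 0.9%. The smallest p values between *muMt*-/- and WT mice belonged to *Il4ra*, the IL-4 receptor chain, *Ccnd2*, a cyclin of the G1 phase, and *Csf2rb*, the common beta chain of the GM-CSF receptor. *Il4ra* was at 9.54 ± 7.25 against 2.80 ± 2.43 (log2 fold change 1.75, adjusted p = 0.336), and 3 of 6 *muMt*-/- libraries lay above all WT libraries. Over the alternatives its adjusted p ran from 0.0184, without the filter on low counts, to 1 with DESeq2 (unadjusted p = 0.0049), and with the macrophage markers as a covariate the log2 fold change was 1.02 (adjusted p = 0.852). *Ccnd2* was at 24.9 ± 4.27 against 39.0 ± 8.87, with 5 of 6 *muMt*-/- libraries below all WT libraries (−0.52, adjusted p = 0.68). *Csf2rb* was at 8.10 ± 13.9 against 2.10 ± 2.10 (1.80, adjusted p = 0.686), and the value was 0.23 without replicate 1 of the *muMt*-/- group and −0.43 with the macrophage markers as a covariate. All 13 macrophage markers tested between these groups lay above 0 (median log2 fold change 2.23), 9 of them at an unadjusted p under 0.05.

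For the GABA pellet in CD8+ T cells of *muMt*-/- mice, the smallest p values belonged to 3 genes that IL-2 or STAT5 can induce. The survival gene *Bcl2* was at 9.82 ± 2.11 against 5.41 ± 2.27, with 4 of 6 GABA-treated libraries above all those without the pellet (log2 fold change 0.90, adjusted p = 0.999). The cell cycle kinase *Cdk6* (0.66) and *Ccnd2* (0.43) also lay above 0, with the same adjusted p. Against WT mice *Csf2ra* (2.11), *Pik3r1* (−0.9998) and *Osm* (2.18) had the smallest p values, with adjusted p of 0.558, 0.59 and 0.593. With the macrophage markers as a covariate *Csf2ra* was at 0.98 and *Osm* at 0.81, and *Osm* was at 1.31 without replicate 1 of the GABA-treated group. All 13 macrophage markers tested in this comparison also lay above 0, 9 of them at an unadjusted p under 0.05.

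In TAMs 48 genes of the list were tested, and 3 of them were higher and 0 lower in *muMt*-/- than in WT mice (13 and 2 unadjusted). Of all genes 1.02% were higher and 1.02% lower (6.72% and 8.15% unadjusted). The 4 nuclear transcripts summed to 532 to 1287 against 341 to 418 in WT mice, 2 of the 3 tested were called higher, and the part of nuclear RNA in these calls was not tested. Of 15 macrophage markers, 1 was called higher and 4 lower in this comparison (4 and 7 unadjusted). The part of this shift in the 3 calls was not tested either. *Ptpn2*, a phosphatase that acts on JAK and STAT proteins, had lowest, median and highest numbers of 6.82, 7.46 and 11.8 in WT and 7.54, 16.6 and 43.2 in *muMt*-/- TAMs, a log2 fold change of 1.22 ± 0.303 (adjusted p = 0.0227). *Csf2rb* had 26.0, 40.3 and 61.8 against 49.7, 80.0 and 89.3 (0.71 ± 0.187, adjusted p = 0.0318), and *Il4ra* had 37.0, 42.8 and 64.6 against 59.0, 71.8 and 90.5 (0.63 ± 0.167, adjusted p = 0.0343). For *Ptpn2* and *Il4ra* 5 of 6 and for *Csf2rb* 4 of 6 *muMt*-/- libraries lay above all WT libraries.

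These 3 calls were lost in some fits, while the log2 fold changes stayed above 0. With depth as a covariate they were 0.95 for *Ptpn2* (adjusted p = 0.397), 0.73 for *Csf2rb* (0.242) and 0.43 for *Il4ra* (0.511). With the CD8 T cell markers as a covariate they were 0.615 for *Csf2rb* (0.101) and 0.54 for *Il4ra* (0.118), and *Ptpn2* was called at 1.41 (0.0165). Apart from fits with a library left out, the lowest adjusted p was 0.000977, 0.00973 and 0.00619 for the 3 genes, and the highest was that with depth. *Ptpn2* was not called without replicate 1 of WT or replicate 4 of *muMt*-/- TAMs (adjusted p = 0.0594 and 0.149). The latter library also had the highest sum of nuclear transcripts, 1287 against 532 to 707 in the rest of its group, and without it the log2 fold change was 0.89. *Csf2rb* was not called without replicate 1, 3, 4 or 6 of WT (0.0916, 0.0993, 0.0738 and 0.0637) or replicate 1, 2, 3 or 4 of *muMt*-/- TAMs (0.062, 0.0716, 0.0811 and 0.0906). *Il4ra* was not called without replicate 1, 4, 5 or 6 of WT (0.0775, 0.0848, 0.0659 and 0.0802) or replicate 1, 2, 4 or 6 of *muMt*-/- TAMs (0.0831, 0.0824, 0.0536 and 0.0635).

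For the GABA pellet in TAMs 0 of 48 genes were called with edgeR (2 higher and 7 lower unadjusted), and against WT mice again 0 (2 and 2 unadjusted). Over all genes 5.15% were higher and 3.31% lower unadjusted for the pellet, and 3.74% and 3.28% against WT mice. *Pim1*, a STAT5-induced kinase, was at 20.6 ± 3.12 with the pellet against 35.7 ± 10.8 without it (log2 fold change −0.78, adjusted p = 0.195) and against 29.9 ± 5.11 in WT mice (−0.55, adjusted p = 0.527), where all 6 GABA-treated libraries lay below all WT libraries. The kinase *Syk* (−0.76, adjusted p = 0.209) and *Csf2rb* (−0.63, adjusted p = 0.26) followed for the pellet. DESeq2 called *Csf2rb* there, with an adjusted p of 0.0268. *Ptpn2* (0.77) and *Sh2b3* (−0.73) followed against WT mice, both with an adjusted p of 0.579. Of the 5 other ligands of the gamma chain family, *Il15*, singled out after its values were seen, was the only 1 tested within a cell type, at 3.43 ± 1.34, 1.84 ± 1.01 and 2.65 ± 1.71 in WT, *muMt*-/- and GABA-treated *muMt*-/- TAMs.

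The difference between the responses of TAMs and CD8+ T cells was not called for any of 52 list genes with edgeR. At an unadjusted p under 0.05, 5 differences lay above and 4 below 0 for *muMt*-/- against WT mice, *Gab2* among the 4, and 0 and 1 for the pellet. Over all genes 1.75% lay above and 8.32% below 0 in the first test, and 2.58% and 1.95% in the second. The smallest p values in the first test belonged to *Gab2*, *Il13ra1* and *Stat6*, with adjusted p of 0.395, 0.406 and 0.417. *Gab2* gave no usable difference, since all 6 WT CD8+ T cell libraries were at 0. The difference of *Il13ra1* (−2.90 ± 1.23) rests on 1 molecule in the same libraries, and that of *Stat6* was 0.98. In this test 0 of 15 macrophage markers lay above 0 and 11 were lower at an unadjusted p under 0.05. The part of macrophage RNA in CD8+ T cell libraries in these differences was not tested. In the second they belonged to *Syk* (−1.44), *Cdk6* (−0.77) and *Ccnd2* (−0.51), each with an adjusted p of 0.994.

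Between the cell types, 19 of 52 list genes were higher and 21 lower in CD8+ T cells, beside 12.2% and 26.9% of all genes. The groups of the list were not tested against each other. Of 17 genes induced by IL-2 or STAT5, 12 were higher and 3 lower in CD8+ T cells, with the largest log2 fold changes for the cytotoxic protease *Gzmb* (8.19, at 248 ± 68.6 against 0.733 ± 1.24) and the cytokine *Lta* (5.60). Both genes passed the filter only through the CD8+ T cell libraries (the TAM mean of *Lta* was 0.048), so their calls and rank are given as a description. Of the 17 genes, 12 passed the filter within TAMs on the scale of that cell type. The rest entered this comparison only through the CD8+ T cell libraries, so the counts of 12 higher and 3 lower are a description too. Among 7 other cytokine receptors 1 was higher and 5 were lower, with *Csf2rb2* at −2.88 and *Csf2ra* at −2.70. For 8 other JAK kinases and STAT factors the counts were 3 and 4, with *Stat4* at 4.05 and *Stat2* at −1.52. Of 10 inhibitors and phosphatases 1 was higher (the ubiquitin ligase *Cblb*, 2.26) and 4 were lower (*Socs3*, −1.32). Of 10 adaptors and kinases 2 were higher and 5 lower, with *Gab2* at −3.74 and *Syk* at −2.54. *Stat4* (TAM mean 0.611) also passed the filter only through the CD8+ T cell libraries, and *Gab2* (CD8+ T cell mean 0.871) only through the TAM libraries. Compared within 1 mouse group at a time, the 4 genes that follow were called in each, with other sizes. *Csf2rb2* was at −1.90 in *muMt*-/- mice, and its value in WT mice rests on 1 molecule in 6 CD8+ T cell libraries. *Csf2ra* was at −4.02 in WT and −1.76 in GABA-treated mice, and *Syk* at −3.73 in WT and −1.22 in GABA-treated mice. *Gab2* was at −2.06 in *muMt*-/- mice and had no molecule in WT CD8+ T cells. Without replicate 6 of WT CD8+ T cells *Syk* was at −3.52 over all mice.

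The spread over the 18 CD8+ T cell libraries, which takes in 3 mouse groups and unequal depth, is given beside the spread that counting alone would give with every library at the mean count. The coefficient of variation was 108% for *Il2*, against 38.3% from counting. For *Il2rb* and *Il2rg* it was 34.3% and 38.7%, against 20.9% and 19.1%. *Il2ra* (27.7% against 22.7%), *Cish* (37.2% against 30.7%), *Stat5a* (51.3% against 47.4%), *Stat5b* (52.9% against 49.3%) and *Il21r* (42.3% against 42.6%) were closer to it, and *Jak3* had 69.6% against 55.2% and *Il15ra* 109% against 81.6%. In TAMs *Il2ra* had 85.1% against 44.2%, and *Il2rg* had 20.8% against 15.6%.

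The genes whose log2 values followed a member most closely over the 18 libraries of a cell type are given as a description, since the libraries share mouse groups, depth and the amount of other cells' RNA. *Il2rb* in CD8+ T cells was closest to *Gimap4* among 347 genes (Pearson r = 0.85, Spearman rho = 0.72, and r = 0.76 once the 2 most extreme libraries for *Il2rb* were set aside). *Ccl5* (r = 0.77, rho = 0.63, and 0.67 without these 2) and *Rack1* (0.77, 0.65 and 0.66) followed. For *Il2rg* in the same cells the closest were *Rgs16* (0.69, 0.70 and 0.63), *Ms4a6b* (0.67, 0.67 and 0.72) and *Coro1a* (0.64, 0.62 and 0.36), the last of which rested on the 2 libraries left out. In TAMs, among 1589 genes, *Il2rg* was closest to *Gbp6* (0.89, 0.89 and 0.83), *Gpr171* (0.87, 0.84 and 0.79) and *Irf7* (0.82, 0.85 and 0.80).

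The members lie on 8 chromosomes of the mouse genome (GRCm38, mm10), with 2 pairs of neighbours. *Stat5b* (chr11:100780731-100859004, minus strand) and *Stat5a* (chr11:100859351-100885169, plus strand) start 346 bases apart and point away from each other. *Il2ra* (chr2:11642792-11693194) and *Il15ra* (chr2:11705172-11733985), both on the plus strand, are 11977 bases apart. In the span from the start of *Il2ra* to the end of *Il15ra* lie 2 predicted genes. The others are *Il2* (chr3:37120713-37125954, minus), *Il2rb* (chr15:78479256-78511621, minus), *Il2rg* (chrX:101264385-101268255, minus), *Il21r* (chr7:125603252-125634397, plus), *Jak3* (chr8:71676383-71690577, plus) and *Cish* (chr9:107296659-107302784, plus).

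Some members share sequence with other transcripts. Of the distinct stretches of 50 bases in their transcripts, 608 occur in both *Stat5a* and *Stat5b*, which is 8.21% of those of *Stat5a* and 11% of those of *Stat5b*. *Il2* shares 12.6% with *Ntan1*, which had 63 molecules in CD8+ T cells and 172 in TAMs, while *Il2* had none in TAMs. *Il2rg* shares 27.5% with the predicted gene *Gm20489*, which has no row in the table. *Jak3* shares 6.93% with any of 15 other genes, most of it with *Insl3*, which lies inside it on the same strand and had 23 and 10 molecules. The end of *Stat5a* overlaps *Stat3* on the opposite strand. How reads that fit several genes were counted is not stated, so the share of such reads in these values was not tested.

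STAT dimers bind sites of the form TTCNNNGAA, which reads the same on both strands, and the promoter windows of RefSeq (250 bases before to 50 after a start, GRCm38) were searched for these 9 letters. Of 32851 windows 8.3% held at least 1 match and 0.457% held 2 or more. Windows were available for 9 members, and 1 of them, *Cish*, held the motif, with 2 matches. Among 48 list genes with a window 7 held it (*Csf2rb2*, *Gzmb*, *Il4*, *Il7r*, *Lta*, *Mtor* and *Socs3*). Counted by window, as for all promoters, these were 1 of 12 windows of members and 7 of 61 of list genes (11.5%). A match is a description of the letters and no evidence of binding, which was not measured here. The *Cish* window (chr9:107296409-107296708, plus strand) is shown because no other member's window held a match, that of *Il2ra*, which STAT5 also induces, included. The matches, at chr9:107296659-107296667 and chr9:107296670-107296678, are in capitals.
Cish: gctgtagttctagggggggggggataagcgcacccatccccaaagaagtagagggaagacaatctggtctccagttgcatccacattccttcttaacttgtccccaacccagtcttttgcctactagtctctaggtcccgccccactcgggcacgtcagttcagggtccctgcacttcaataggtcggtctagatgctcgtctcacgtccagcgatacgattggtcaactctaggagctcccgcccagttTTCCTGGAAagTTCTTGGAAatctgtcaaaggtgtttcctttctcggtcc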

How the data were processed

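Digital RNA sequencing of 36 libraries (100 sorted cells each, 6 per group) was analysed. The authors used STAR (version 2.5.4b) and the UCSC refFlat genes of the mm10 genome, and the deposited table holds counts, the number of distinct barcoded molecules per gene and library, with no normalization. Spike-in RNA was added to each tube, but no spike-in row was found. The strand counted and the handling of reads that fit several genes are not stated.

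Counts were divided by median-of-ratios size factors from DESeq2 1.42.0, over 18 libraries for values within a cell type and over 36 between cell types. Genes with a mean above 1 normalized molecule were tested with edgeR 4.0.16 in R 4.3.3 (TMM, quasi-likelihood F-test, 1 coefficient per group), with Benjamini-Hochberg adjustment over all genes tested and a threshold of 0.05. A 95% interval is the estimate plus and minus 1.96 SE. Depth per library is given in the results, and floors (3 counts) cover counting error alone. Summaries and plots used Python 3.11.15 with numpy 2.4.6, pandas 2.3.3 and matplotlib 3.10.9. The procedure was tested on simulated data.

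All 10 members were named within each cell type and between the cell types. For the differences of responses only *Il2*, *Il2ra* and *Il2rb* were named, besides members whose direction changed with the processing. Of the pathway list, genes with an adjusted p under 0.05 within a cell type were named, or the 3 with the smallest p where fewer than 3 passed. Between cell types these were the 2 genes of each group with the largest absolute log2 fold change among those called, and the same rule of 3 genes was used for the differences of responses. For members with a mean of at least 20 in a cell type, the 3 genes of the same mean with the highest Pearson r of log2(normalized + 1) were named. The members and lists were chosen with earlier results of these data known.

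Alternatives were DESeq2's size factors, its Wald test with adjusted and unadjusted p, no filter, filterByExpr, the 12 libraries compared, the replicate number as a block, marker and depth covariates, single mouse groups and each library left out. *Ighm* was not analysed here.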

Additional observations from a re-analysis of the deposited data

Results flagged for a closer look

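In 9 of 78 series of 6 libraries, the highest or the lowest library stood farther from its nearest neighbour than the 95% critical value of Dixon's test allows, and chance gives such a gap in about 1 in 20 groups. In CD8+ T cells of WT mice, *Il2ra* was at 26.3 in replicate 6, with the next library at 13.7. *Il2rg* was at 46.6 in replicate 6 of *muMt*-/- CD8+ T cells (next 22.3), and *Il15ra* was at 4.57 in replicate 2 of GABA-treated *muMt*-/- CD8+ T cells (next 1.24). *Stat5a* was lowest, at 1.12, in replicate 4 of *muMt*-/- CD8+ T cells, where the next library held 4.05.

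In TAMs, *Il2rb* was at 0.727 in replicate 4 of WT mice and at 0.831 in replicate 6 of GABA-treated *muMt*-/- mice, each a single molecule in a group otherwise at 0. A lone molecule always stands apart by this measure, so the rate of 1 in 20 does not apply to these 2 of the 9. *Stat5b* was at 0 in replicate 6 of *muMt*-/- TAMs, where the next library held 6.22.

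The macrophage markers summed to 102 in replicate 5 of WT CD8+ T cells (next 26.4) and to 495 in replicate 1 of *muMt*-/- CD8+ T cells (next 156). Their part in the members' values was not tested beyond the fits with these markers as a covariate.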

How the results depend on the processing

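Outside the fits with a library left out, 581 of 615 log2 fold changes of the members kept their direction and their side of the threshold, 25 changed direction, 8 lost a call and 1 gained one. With 1 library left out it was 1403 of 1488, with 77 changes of direction and 8 lost calls. For named pathway genes, whose alternatives were chosen after seeing the data, it was 236 of 257 (1 change of direction, 5 calls lost and 15 gained) and 702 of 720 (18 calls lost). None of the members that changed direction had been called, and the cause was not tested. At this depth *Il15ra* had 27 molecules in 18 CD8+ T cell libraries, with standard errors of 0.689 to 0.895.

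With DESeq2's size factors in edgeR, 3 log2 fold changes changed direction: *Stat5a* for the GABA pellet in CD8+ T cells (−0.042), and *Il21r* (0.046) and *Jak3* (0.055) in the difference of responses (TAMs minus CD8+ T cells) for *muMt*-/- against WT mice. DESeq2's Wald test gave −0.0401 for *Stat5a* with either p, and 0.035 for *Il21r*, 0.044 for *Jak3* and 0.00403 for *Il2* in that difference. *Cish* for the pellet in CD8+ T cells was at −0.000143 with filterByExpr, and *Stat5a* at −0.029 with 12 libraries. With the macrophage markers as a covariate, *Il2rg* (0.13), *Stat5b* (0.14) and *Csf2rb* (−0.43) changed direction for *muMt*-/- against WT CD8+ T cells, and *Il2rb* (0.28) and *Jak3* (0.38) for GABA-treated *muMt*-/- against WT. With depth as a covariate, *Jak3* was at −0.011 and *Il2ra* at −0.27 in these CD8+ T cell comparisons. In TAMs depth gave *Il2rg* 0.077, *Il21r* 0.14 and *Stat5a* −0.22 for *muMt*-/- against WT mice, and *Il2rg* −0.018 for the pellet and 0.059 for GABA-treated *muMt*-/- against WT mice, where the CD8 T cell markers gave 0.00557. *Il15ra* was at 0.21 between cell types in *muMt*-/- mice alone.

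Whether libraries with the same replicate number share a mouse or a batch is not stated, and the main fits used no pairing. Of 90 same-numbered pairs of libraries from different groups, 15 had a residual correlation above 0.1 and 15 were best with their own number (r −0.39 to 0.45). These correlations cannot exclude shared mice or batches. With the replicate block, *Jak3* was at 0.053 for GABA-treated *muMt*-/- against WT CD8+ T cells, and *Il21r* at 0.013 in the difference of responses to the pellet. The replicate block gave 2 genes called for the pellet and 1 for GABA-treated *muMt*-/- against WT mice in CD8+ T cells, 4 for the pellet in TAMs, and 12 and 1 in the differences of responses.

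The count of members called moved from 0 or by over 1.5 times in 2 cases. It was 1 with DESeq2's unadjusted p for *muMt*-/- against WT CD8+ T cells, and 5 with filterByExpr between cell types, where fewer members are tested. Between cell types it was also 6, 7 and 7 in WT, *muMt*-/- and GABA-treated mice alone and 8 with no filter, against 9. The count of all genes called moved from 0 or by over 1.5 times as follows, in the order *muMt*-/- against WT, pellet, and GABA-treated *muMt*-/- against WT. DESeq2's unadjusted p gave 222, 133 and 222 in CD8+ T cells and 1111, 580 and 440 in TAMs. No filter gave 72, 11 and 64, then 343, 51 and 63, and 79 and 17 in the differences of responses. The 12 libraries alone gave 1, 1 and 1 in CD8+ T cells, and 324 and 3 in the first and last TAM comparisons. DESeq2's size factors gave 1 for GABA-treated *muMt*-/- against WT CD8+ T cells and 0 for the first difference of responses. DESeq2's adjusted p gave 1 in the same CD8+ T cell comparison, 60 and 14 in the last 2 TAM comparisons and 9 in the first difference. With filterByExpr there were 295 and 2 in the first and last TAM comparisons, 0 in the first difference and 1661 between cell types. The macrophage markers gave 6 for the pellet and 10 for GABA-treated *muMt*-/- against WT CD8+ T cells. Depth gave 6 for the pellet in CD8+ T cells, and 11 and 5 in the first 2 TAM comparisons. Between cell types 1928, 1810 and 1869 genes were called in WT, *muMt*-/- and GABA-treated mice alone.

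With each library left out in turn, members called were 8 or 9 between cell types and 0 in the other comparisons, and all genes called ranged from 0 to 13 (13 without replicate 5 of the WT group), 0 to 1 and 0 to 1 in CD8+ T cells. They ranged from 69 to 230, 2 to 35 and 2 to 9 in TAMs, and from 0 to 9 and 0 to 2 in the differences of responses. Ranges of log2 fold changes that changed direction, with 1 library left out, follow. In CD8+ T cells of *muMt*-/- against WT mice they were −0.45 to 0.095 for *Il21r* and −0.051 to 0.42 for *Cish*. For the pellet they were −0.41 to 0.87 for *Il2*, −0.25 to 0.20 for *Il2rg*, −0.27 to 0.27 for *Il21r*, −0.15 to 0.12 for *Stat5a* and −0.082 to 0.22 for *Cish*. For GABA-treated *muMt*-/- against WT mice they were −0.43 to 0.998 for *Il15ra* and −0.35 to 0.18 for *Jak3*. In TAMs of *muMt*-/- against WT mice they were −0.16 to 0.0038 for *Il2rg*, −0.0058 to 0.43 for *Stat5a* and −0.12 to 0.24 for *Stat5b*. For the pellet they were −0.43 to 0.76 for *Il2ra*, −0.064 to 0.14 for *Il2rg*, −0.32 to 0.15 for *Il21r* and −0.51 to 0.10 for *Cish*, and for GABA-treated *muMt*-/- against WT mice −0.16 to 0.069 for *Il2rg* and −0.13 to 0.51 for *Cish*. In the difference of responses for *muMt*-/- against WT mice they were −0.093 to 0.47 for *Il2rg*, −0.45 to 0.24 for *Il21r*, −0.086 to 0.45 for *Cish* and −0.46 to 0.20 for *Jak3*. For the pellet the differences were −0.90 to 0.37 for *Il2* (TAMs at 0, so no estimate), −0.24 to 0.88 for *Il2ra*, −0.15 to 0.29 for *Il2rg*, −0.44 to 0.22 for *Il21r*, −0.085 to 0.46 for *Stat5b*, −0.56 to 0.036 for *Cish* and −0.39 to 0.16 for *Jak3*.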
